A study of Mus musculus with 6 samples.

Results

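The ankyrin repeat genes Ankrd1, Ankrd2 and Ankrd23 and the gene Abra, which encodes an actin-binding protein of striated muscle, were followed in mouse hearts as a set of 4 genes chosen by name from the 55401 genes of the deposited table. The choice was made with the difference between Ang II and control hearts in these libraries already known, so that difference is given for the 4 genes as a description. No p of it is printed for a member, and the counts of members past a threshold stand only beside the share over all genes. Hearts came from C57BL/6 mice aged 6 to 8 weeks in 2 groups, 3 mice given angiotensin II (Ang II), a peptide hormone that constricts vessels and raises blood pressure, and 3 control mice. Each heart gave 1 poly(A) RNA-seq library, and hearts are numbered 1 to 3 by their replicate labels. The study's title concerns hypertensive heart failure. The dose, route and duration of Ang II and the treatment of the control mice are not given in the sources used here, and no genetic change is named for either group.

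Ankrd1, Ankrd2 and Ankrd23 encode the muscle ankyrin repeat proteins (also called CARP, Arpp and DARP), which bind the titin filament in the I-band of the sarcomere and are also found in the nucleus, where Ankrd1 acts as a transcriptional cofactor. Their transcripts are known to rise when striated muscle is stretched or overloaded; Ankrd1 is the main form in heart, and Ankrd2 is known chiefly from slow skeletal muscle. Abra, also called STARS, binds actin at the sarcomere and favours actin assembly, which releases MRTF cofactors from monomeric actin so that they enter the nucleus and act with serum response factor (SRF).

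Ankrd1 (ENSMUSG00000024803) lies on GRCm38 chromosome 19, from 36111961 to 36120099 on the minus strand, and its principal transcript has 9 exons. Ankrd2 (ENSMUSG00000025172) lies on the same chromosome, from 42036000 to 42045110 on the plus strand, also with 9 exons. Ankrd23 (ENSMUSG00000067653) lies on chromosome 1, from 36530188 to 36536883 on the minus strand, with 9 exons, 624 bases from its nearest neighbour on the same strand, Ankrd39. Abra (ENSMUSG00000042895) lies on chromosome 15, from 41864076 to 41869720 on the minus strand, with 2 exons and 1 annotated transcript. In GENCODE M21 the spans of Ankrd1, Ankrd2 and Abra overlap no other gene, and the model that overlaps Ankrd23, Gm42417, had 0 counts in all 6 hearts.

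The promoters of the ankyrin repeat genes are shown because M-CAT elements (CATTCC or its reverse complement GGAATG), bound by TEAD factors, are the sites through which the Hippo pathway cofactor YAP acts on target genes such as Ankrd1. The RefSeq promoter table (GRCm38) held 3 of the 4 genes in 4 windows, each from 250 bases before to 50 bases after an annotated start, and gave 2 windows for Ankrd23. Each is printed 5′ to 3′ on the strand of the gene, and capitals mark matches on either strand to M-CAT, to AGATAA (the motif of the GATA factors) and to the E-box, CANNTG. No match overlapped another.
Ankrd1, chr19:36119795-36120094, minus strand: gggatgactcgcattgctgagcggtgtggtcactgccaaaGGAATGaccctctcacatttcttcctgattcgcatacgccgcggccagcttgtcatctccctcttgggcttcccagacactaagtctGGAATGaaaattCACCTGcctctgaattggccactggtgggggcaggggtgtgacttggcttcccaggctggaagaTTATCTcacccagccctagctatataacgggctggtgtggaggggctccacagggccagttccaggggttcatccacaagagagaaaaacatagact
Ankrd2, chr19:42035777-42036076, plus strand: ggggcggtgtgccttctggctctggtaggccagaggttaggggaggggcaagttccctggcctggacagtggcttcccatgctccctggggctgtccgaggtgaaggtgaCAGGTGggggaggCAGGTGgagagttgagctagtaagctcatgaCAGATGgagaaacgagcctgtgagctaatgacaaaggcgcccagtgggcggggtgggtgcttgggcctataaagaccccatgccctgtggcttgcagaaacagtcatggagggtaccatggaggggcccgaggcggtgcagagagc
Ankrd23 window 1, chr1:36535690-36535989, minus strand: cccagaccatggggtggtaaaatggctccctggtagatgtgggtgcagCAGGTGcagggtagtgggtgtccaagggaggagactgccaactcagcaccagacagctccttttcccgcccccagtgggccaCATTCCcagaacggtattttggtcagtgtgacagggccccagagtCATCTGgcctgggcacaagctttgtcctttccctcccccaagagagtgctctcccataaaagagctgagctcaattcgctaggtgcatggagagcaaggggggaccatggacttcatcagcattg
Ankrd23 window 2, chr1:36536507-36536806, minus strand: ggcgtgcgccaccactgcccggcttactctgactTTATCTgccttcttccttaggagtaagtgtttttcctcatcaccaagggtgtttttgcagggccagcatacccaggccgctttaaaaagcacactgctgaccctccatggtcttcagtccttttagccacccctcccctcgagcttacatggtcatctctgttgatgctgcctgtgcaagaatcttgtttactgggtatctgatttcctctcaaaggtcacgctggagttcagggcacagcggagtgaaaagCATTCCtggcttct

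The Ankrd1 window held M-CAT matches with their first base at -210 and -123 (where -1 is the last base before the start), a GATA match at -47 and an E-box at -111. Ankrd23 had an M-CAT match at -120 of window 1 and at 37 of window 2, E-boxes at -202 and -75 of window 1 and a GATA match at -216 of window 2. Ankrd2 had E-boxes at -140, -127 and -96 and neither an M-CAT nor a GATA match. Of the 32851 windows in the whole promoter table, 14.7% held an M-CAT match, 11.2% a GATA match and 72.3% an E-box. The CArG box, the site of SRF, was found in 1.63% of all windows and the MEF2 box in 3.19%, and in none of these 4 windows. These are matches of letters, the lack of one says only that those letters are not in the window, and whether a factor binds there was not measured.

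**Figure D1:**
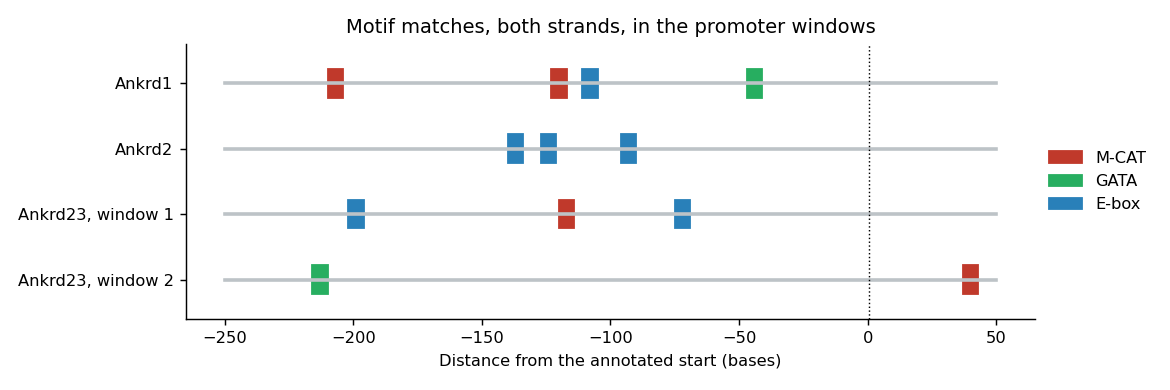
Motif matches in the 4 promoter windows of Ankrd1, Ankrd2 and Ankrd23, by distance in bases from the annotated start (dotted line). Coloured boxes mark M-CAT (red), GATA (green) and E-box (blue) matches on either strand; M-CAT matches stand in the Ankrd1 window and in both Ankrd23 windows.

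Libraries held 51202916 to 63564869 estimated counts. Mitochondrial transcripts and their nuclear copies took 48.9% to 55.0% of them in Ang II hearts and 51.7% to 66.4% in control hearts, a range that moves values scaled by all reads. Levels are therefore given both as FPKM (fragments scaled by transcript length and library size, as the authors deposited them), which allows genes to be compared, and as CPM (counts scaled to a common library size with edgeR's TMM factors), which was used for differences between hearts. Ang II replicate 1 stood apart. Over the 16759 genes tested, its median distance from the mean of the other Ang II hearts was 0.44 on the log2 scale, against 0.28 and 0.25 for Ang II replicates 2 and 3 and 0.17 to 0.20 for the control hearts. Its values are named for each member, while some other genes are given only as group means. All 9 cardiomyocyte markers were detected in every heart. In bulk tissue, fewer cells of a type and less RNA per cell cannot be told apart.

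Ankrd1, the cardiac ankyrin repeat protein, stood at 528, 824 and 778 CPM across Ang II hearts 1 to 3, against 409, 468 and 423 CPM across control hearts 1 to 3. Every Ang II heart lay above every control heart, but Ang II replicate 1 only 1.13 times above the highest control heart. The means were 710 ± 159 CPM in Ang II hearts and 433 ± 31.0 CPM in control hearts (SD, n = 3 each), a log2 change of 0.71 (SE 0.21) or 1.64-fold. In FPKM the hearts overlapped, with 142, 290 and 279 FPKM across Ang II hearts 1 to 3 and 104, 171 and 139 FPKM across control hearts 1 to 3. Ang II replicate 1 then lay below control replicate 2. Ankrd1 was among the abundant transcripts in both groups, at places 120 to 272 of the table by FPKM in Ang II hearts and 180 to 222 in control hearts.

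Ankrd23, the relative of Ankrd1 named for its regulation in diabetic muscle, stood at 237, 372 and 379 CPM across Ang II hearts 1 to 3, against 129, 185 and 169 CPM across control hearts 1 to 3. The groups did not overlap, and the lowest value in each group was that of replicate 1. The means were 329 ± 79.8 CPM in Ang II hearts and 161 ± 29.0 CPM in control hearts (SD, n = 3 each), a log2 change of 1.03 (SE 0.24) or 2.05-fold. Its levels in FPKM were 68.2, 140 and 146 across Ang II hearts 1 to 3 and 35.2, 72.3 and 59.4 across control hearts 1 to 3. On that scale Ang II replicate 1 again fell just below control replicate 2.

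Abra, the gene of the actin-binding protein STARS, stood at 70.9, 153 and 138 CPM across Ang II hearts 1 to 3, against 15.9, 26.6 and 19.9 CPM across control hearts 1 to 3. The groups were apart by a wide margin, since the lowest Ang II heart, replicate 1, was 2.66 times above the highest control heart. The means were 121 ± 43.8 CPM in Ang II hearts and 20.8 ± 5.45 CPM in control hearts (SD, n = 3 each), a log2 change of 2.54 (SE 0.35) or 5.80-fold. In FPKM the lowest Ang II heart was still 1.96 times above the highest control heart, with 18.4, 52.2 and 48.0 FPKM across Ang II hearts 1 to 3 and 3.92, 9.43 and 6.34 FPKM across control hearts 1 to 3. By FPKM, Abra took places 512 to 1163 of the table in Ang II hearts and 2187 to 3539 in control hearts.

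Ankrd2, the member best known from skeletal muscle, was scarce in every heart. It had 78, 99 and 79 estimated counts across Ang II hearts 1 to 3, against 0, 14 and 26 across control hearts 1 to 3. In CPM these were 1.79, 1.41 and 1.11 in Ang II hearts and 0, 0.210 and 0.473 in control hearts. The 0 in control replicate 1 allows a level of up to 0.0657 CPM (3 counts in that library), counting error only. In FPKM they were 1.21, 1.25 and 0.995 across Ang II hearts 1 to 3 and 0, 0.194 and 0.380 across control hearts 1 to 3. The groups did not overlap on either scale. Ang II replicate 1 was the highest heart in CPM but not in FPKM, and it was the lowest Ang II heart for the other 3 genes on both. The log2 change of 2.62 (SE 0.95) rests on few counts and moved with the setting: it was 0.86 on log2(FPKM + 1), and leaving out 1 control heart gave from 2.07 (without replicate 1) to 3.63 (without replicate 3).

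**Figure D2:**
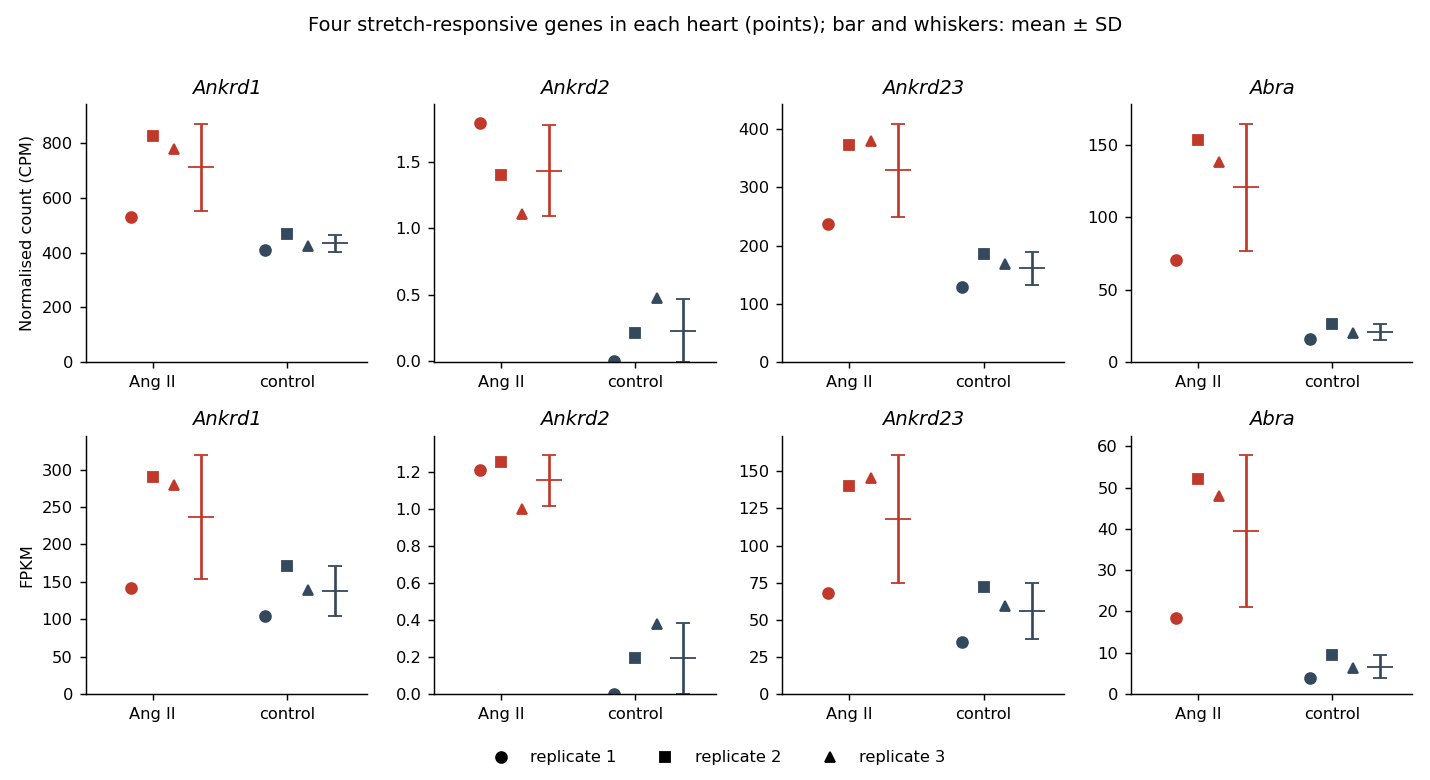
Normalised counts in CPM (top) and FPKM (bottom) of Ankrd1, Ankrd2, Ankrd23 and Abra. Each point is 1 heart, marked by replicate number, and the bar with whiskers is the mean ± SD of 3 hearts. In CPM every Ang II heart lies above every control heart for all 4 genes, and in FPKM Ang II replicate 1 lies below control replicate 2 for Ankrd1 and Ankrd23.

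In CPM the Ang II hearts lay above the control hearts without overlap for 4 of the 4 genes, as they did for 7.97% of the 16759 genes tested, while 9.21% lay below without overlap. A gene was called when its p, adjusted by the Benjamini-Hochberg method over all genes tested, was under 0.05. In edgeR's quasi-likelihood fit of all 6 hearts 0 of the 4 were called, where 0.0358% of all genes were called higher and 0% lower. The unadjusted p was under 0.05 for 4 of 4, against 3.57% of all genes higher and 3.94% lower. DESeq2 called 2 of the 4, Ankrd23 and Abra, with 0.95% of its genes called higher and 0.699% lower. On log2(FPKM + 0.5), limma called 0 of the 4, with 0.0248% of genes higher and 0.00827% lower, and with a pseudocount of 0.1 also 0 of the 4 (0.0165% higher). By edgeR, 0 of the 4 were called with median-of-ratios scaling (0.0418% of genes higher), without mitochondrial genes (0.0479% higher) or without a filter on low counts (0.0426% higher, 0.00387% lower). Without Ang II replicate 1, edgeR called 3 of the 4, Ankrd1, Ankrd23 and Abra, with 0.527% of genes called higher and 0.204% lower. Without any other heart it called 0 of the 4, and without Ang II replicate 2 it called 0.0114% of genes lower. Since the 4 genes were chosen on this contrast, nothing further is read from these counts.

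The order of the levels per length, in FPKM, was the same in all 6 hearts, with Ankrd1 highest, then Ankrd23, Abra and Ankrd2. Across Ang II hearts the ranges of Ankrd1 (142 to 290 FPKM) and Ankrd23 (68.2 to 146 FPKM) overlapped, whereas within any heart Ankrd1 was higher. Ankrd23 and Abra did not overlap in Ang II hearts (68.2 to 146 against 18.4 to 52.2 FPKM) or in control hearts (35.2 to 72.3 against 3.92 to 9.43 FPKM).

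Ratios between the genes within a heart do not depend on scaling of the library. They are built from the values whose difference was known when the members were chosen, and are given as a description only. How often ratios of other gene pairs lie apart was not counted. The ratio of Ankrd23 to Ankrd1 in FPKM was 0.481, 0.482 and 0.521 across Ang II hearts 1 to 3 and 0.337, 0.423 and 0.428 across control hearts 1 to 3. It averaged 0.495 ± 0.0231 in Ang II hearts and 0.396 ± 0.0508 in control hearts (SD, n = 3 each), 1.25 times higher, with no overlap. The ratio of Abra to Ankrd1 was 0.130, 0.180 and 0.172 across Ang II hearts 1 to 3, against 0.0375, 0.0551 and 0.0456 across control hearts 1 to 3. The mean ratio was 3.48 times higher in Ang II hearts, and the groups were apart. Ang II replicate 1, low in Ankrd1, Ankrd23 and Abra alike, had an Ankrd23 to Ankrd1 ratio close to that of Ang II replicate 2.

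The summed FPKM of the 9 cardiomyocyte markers, among them the cardiac myosin and troponin genes Myh6 and Tnnt2, was 12974 to 15874 in Ang II hearts and 9605 to 14863 in control hearts. Set against that sum, Ankrd1 stood at 10.9, 18.3 and 17.6 FPKM per 1000 marker FPKM across Ang II hearts 1 to 3, and at 10.9, 11.5 and 11.1 across control hearts 1 to 3. On this measure Ang II replicate 1 lay among the control hearts, and the log2 change of Ankrd1 was 0.45. Ankrd23 stood at 5.25, 8.81 and 9.17 in Ang II hearts and 3.66, 4.87 and 4.74 in control hearts, with the groups apart. Abra stood at 1.42, 3.29 and 3.02 in Ang II hearts and 0.408, 0.635 and 0.506 in control hearts, a mean 4.99 times higher. This measure was added after the data were seen.

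**Figure D3:**
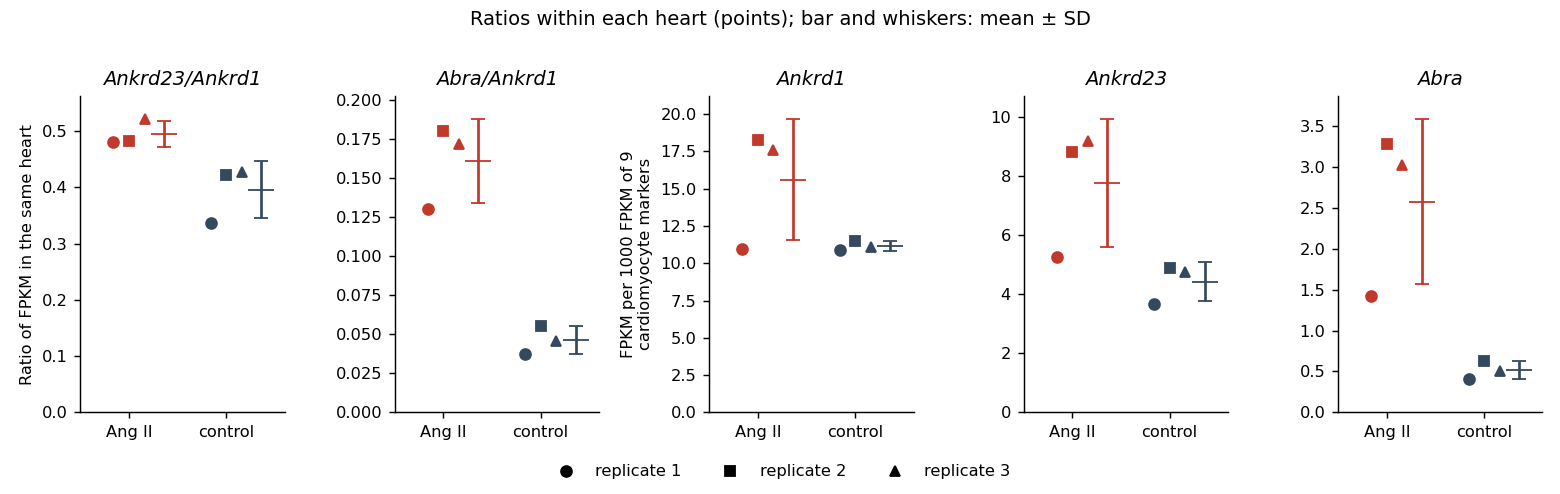
Ratios of Ankrd23 and of Abra to Ankrd1 in FPKM within each heart (left pair), and FPKM of Ankrd1, Ankrd23 and Abra per 1000 FPKM of 9 cardiomyocyte markers (right); points are hearts, bars with whiskers are mean ± SD of 3 hearts. The groups are apart except for Ankrd1 per cardiomyocyte marker, where Ang II replicate 1 (10.9) sits among the control hearts (10.9 to 11.5).

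The log2 change of Ankrd1 was 0.59 to 0.89 with 1 heart left out and 0.69 to 0.74 under the planned changes of scaling, filter, test, unit or block, but 0.45 relative to the cardiomyocyte markers. For Ankrd23 it was 0.90 to 1.22 with 1 heart left out and 0.78 relative to those markers, and for Abra 2.33 to 2.81 and 2.25. For each of these 3 genes the highest value of all settings was the one without Ang II replicate 1.

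**Figure D4:**
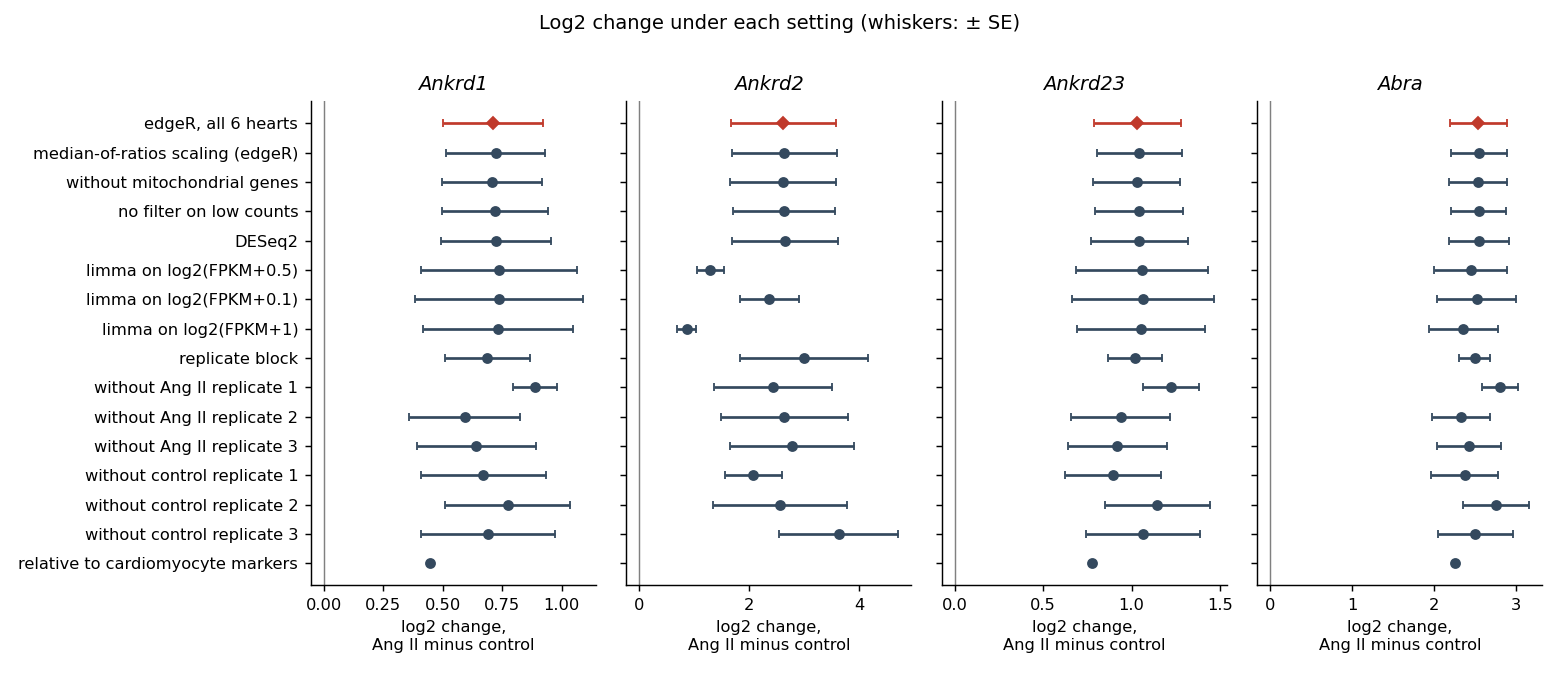
Log2 change (Ang II minus control) of each gene under each setting; whiskers are ± SE, and the red diamond is edgeR with all 6 hearts. All values lie above 0, and those of Ankrd2 range from 0.86 to 3.63.

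Genes with the most similar profile were ranked by the root mean square difference between centred log2(CPM + 0.5) profiles over the 6 hearts, among genes with a mean of at least 5 CPM. These profiles hold the difference between the groups that was known when the members were chosen. Closeness therefore in large part restates the size of that difference, and the ranking is given as a description only. The profile of Ankrd1 was nearest to those of the deubiquitinase gene Usp28 (0.064), the cochaperone gene Dnajb5 (0.080), the interferon-induced GTPase gene Igtp (0.092), the cell cycle inhibitor gene Cdkn1a (0.094) and the clathrin assembly gene Picalm (0.094), all differences on the log2 scale. That of Ankrd23 was nearest to Nrap, a myofibril assembly gene (0.111), the amino acid transporter gene Slc38a2 (0.113), Picalm (0.135), Otud1 (0.146) and Usp28 (0.158), and Ankrd1 itself came at place 14 with 0.202. Picalm and Usp28 stood in both lists. The profile of Abra was farther from any other gene, with Hbegf at 0.251, Xirp1 at 0.257, Acta1 at 0.314, Nfix at 0.427 and Ccn2 at 0.440. Hbegf had 30.3, 51.4 and 46.4 CPM across Ang II hearts 1 to 3 and 5.10, 5.96 and 6.18 CPM across control hearts 1 to 3, and so shared with Abra the lowest Ang II value in replicate 1. Ankrd1 came at place 80 for Abra, with 0.913. Among the 5 nearest to Ankrd2 were P2rx5 (0.286), Nfil3 (0.286), Mb (0.311) and Xirp2 (0.329), a ranking that rests on the low counts given above.

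Genes around the 4 in their known pathways were examined in lists without the members, beside all 16759 genes tested, whose median log2 change was 0.01. These lists were chosen with earlier results of these data known. The calls and p of their genes are therefore a description of this table and no independent support. The 20 tested genes of the Hippo, YAP and TEAD pathway had a median log2 change of -0.19, and edgeR and DESeq2 called 0 of them. Before adjustment, edgeR's p was under 0.05 for 1 lower and 0 higher. The coactivator gene Yap1 stood at 34.4, 49.4 and 45.3 CPM across Ang II hearts 1 to 3 and 35.2, 43.7 and 42.5 CPM across control hearts 1 to 3, which overlapped (log2 change 0.09, SE 0.19). Tead1, its DNA-binding partner, was at 17.3, 52.2 and 49.9 CPM across Ang II hearts 1 to 3 and 30.7, 19.7 and 33.0 CPM across control hearts 1 to 3, also with overlap. Lats2, a kinase that restrains YAP, was at 15.0 ± 2.93 CPM in Ang II hearts and 22.6 ± 4.01 CPM in control hearts (SD, n = 3 each; edgeR adjusted p = 0.593). Its groups did not overlap, with 11.7, 16.5 and 17.0 CPM across Ang II hearts 1 to 3 and 20.4, 27.3 and 20.3 CPM across control hearts 1 to 3. Of all genes tested, 9.21% lay below without overlap. Lats2 was the 1 lower gene with p under 0.05 before adjustment, and the same gene is the 1 lower among the YAP-TEAD targets. The median of the 23 tested YAP-TEAD target genes was -0.10, and 1 passed, with edgeR's p before adjustment under 0.05 for 2 higher and 1 lower and 1 called higher by DESeq2. This was Ccn2, the connective tissue growth factor gene, at 165, 188 and 177 CPM across Ang II hearts 1 to 3 and 44.9, 50.2 and 45.5 CPM across control hearts 1 to 3 (log2 change 1.92, SE 0.14; edgeR adjusted p = 0.0398). Ccn2 rose, and the other targets, Nt5e with 21.1 ± 11.5 CPM in Ang II and 8.97 ± 1.32 CPM in control hearts included (edgeR adjusted p = 0.604), did not pass with all 6 hearts. Nt5e stood at 7.96, 28.6 and 26.9 CPM across Ang II hearts 1 to 3, and without Ang II replicate 1 it passed (log2 change 1.63, edgeR adjusted p = 0.0193).

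Of 28 tested partners of Abra and genes of the actin, MRTF and SRF route, edgeR and DESeq2 called 0, and edgeR's p before adjustment was under 0.05 for 0, with a median log2 change of -0.05. Srf itself stood at 16.6, 21.4 and 24.4 CPM across Ang II hearts 1 to 3 and 17.2, 24.2 and 23.8 CPM across control hearts 1 to 3 (log2 change -0.06, SE 0.21). The cofactor gene Mrtfa averaged 7.08 ± 0.0441 CPM in Ang II hearts and 7.46 ± 1.82 CPM in control hearts (SD, n = 3 each), a difference below the spread between control hearts. Of 30 tested SRF target genes, with a median of 0.15, edgeR called 0. Before adjustment its p was under 0.05 for 4 higher and 4 lower genes, and DESeq2 called 3 higher and 2 lower. DESeq2's higher calls were Acta1, Nppa and Nppb and its lower calls the immediate early genes Egr1 and Fosb, the last pair named after their values were seen. Acta1, the skeletal α-actin gene, stood at 504, 718 and 706 CPM across Ang II hearts 1 to 3 and 135, 160 and 163 CPM across control hearts 1 to 3 (log2 change 2.07, SE 0.20; edgeR adjusted p = 0.0517). It passed edgeR's threshold with median-of-ratios scaling (adjusted p = 0.0499), without mitochondrial genes (0.0483), with no filter (0.0275) and without Ang II replicate 1 (0.00488). Egr1 stood at 20.6, 27.3 and 26.9 CPM across Ang II hearts 1 to 3 and at 41.2, 167 and 114 CPM across control hearts 1 to 3.

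Partners of the ankyrin repeat proteins at the titin I-band and Z-disc had 22 of 28 tested log2 changes above 0, with a median of 0.34, where 8537 of the 16759 genes tested lay above 0. The log2 changes of the 9 cardiomyocyte markers were also above 0 in 9 of 9, with 0 called by edgeR and 0 with p before adjustment under 0.05, and their part in this list's values was not tested. EdgeR called 0, its p before adjustment being under 0.05 for 6 higher and 0 lower genes. DESeq2 called 4 higher, Des, Pdlim3, Trim54 and Smpx, the last pair named after their values were seen. Ttn, the titin gene, stood at 1412, 1778 and 734 CPM across Ang II hearts 1 to 3 and at 588, 705 and 607 CPM across control hearts 1 to 3 (log2 change 1.05, SE 0.33; edgeR adjusted p = 0.536). Des, the desmin gene, stood at 2091 ± 48.2 CPM in Ang II hearts and 1333 ± 116 CPM in control hearts (SD, n = 3 each), with an edgeR adjusted p of 0.449 and a DESeq2 adjusted p of 0.000318. Pdlim3, a Z-disc protein gene, stood at 14.1, 29.1 and 29.7 CPM across Ang II hearts 1 to 3 and 8.69, 9.61 and 8.54 CPM across control hearts 1 to 3, with an edgeR adjusted p of 0.337, and of 0.00523 without Ang II replicate 1. Mypn (myopalladin), Tcap (telethonin) and Casq2 (calsequestrin), which bind members of the family, overlapped between the groups. Casq2 was at 62.6 CPM in Ang II replicate 1 and 474 and 430 CPM in Ang II replicates 2 and 3, against 144 to 374 CPM in control hearts.

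Of 31 tested mechanosensing and stretch-responsive genes, 2 rose by edgeR's test, Hbegf, an epidermal growth factor receptor ligand, and Xirp1, which binds actin where heart muscle cells join (log2 changes 2.89, SE 0.24, and 2.21, SE 0.21; edgeR adjusted p = 0.0398 and 0.0484). The median of the list was 0.05, and edgeR's p before adjustment was under 0.05 for 6 higher and 0 lower genes. DESeq2 called 5 higher, Hbegf, Xirp1, Xirp2, Lmcd1 and Cilp, the last pair named after their values were seen. Xirp2, its relative, did not pass (log2 change 1.34, SE 0.18; edgeR adjusted p = 0.133, and 2.23e-09 by DESeq2), but passed by edgeR without Ang II replicate 1 (adjusted p = 0.0259). The calls of Ccn2, Hbegf and Xirp1 were lost by edgeR without control replicate 1, 2 or 3 and without Ang II replicate 2 or 3, with adjusted p from 0.083 to 0.421, and held without Ang II replicate 1 (0.00488). Cardiac factors known to act on the Ankrd1 promoter had 0 of 15 tested genes called by edgeR or DESeq2, and edgeR's p before adjustment was under 0.05 for 0, with a median of -0.06. Among them Gata4 stood at 26.7, 40.9 and 44.9 CPM across Ang II hearts 1 to 3 and 41.6, 46.7 and 46.5 CPM across control hearts 1 to 3. Limma on FPKM called 0 genes of any of these lists.

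**Figure D5:**
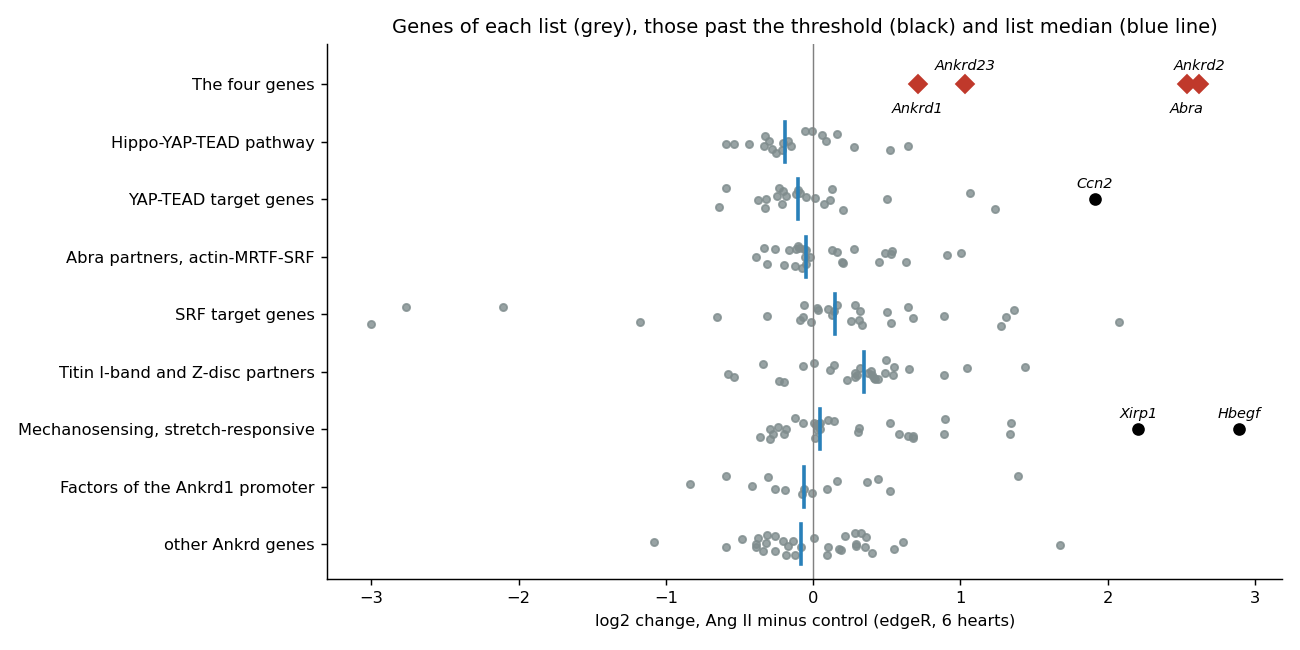
Log2 change (Ang II minus control, edgeR, 6 hearts) of Ankrd1, Ankrd2, Ankrd23 and Abra (red diamonds) and of each tested gene of the pathway lists (grey), with list medians (blue lines) and genes past an adjusted p of 0.05 in black. The list medians lie between -0.19 and 0.34, and Ccn2, Xirp1 and Hbegf are the genes past the threshold.

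Other genes with the symbol Ankrd and a number were taken as a wider comparison by name. Of 44 in the table, 33 had enough counts to be tested, with 16 log2 changes above 0, 17 below and a median of -0.09. EdgeR called 0, its p before adjustment being under 0.05 for 2 higher and 1 lower genes. DESeq2 called 1. That gene was Ankrd55, at 0.920, 1.54 and 1.32 CPM across Ang II hearts 1 to 3 and 0.503, 0.405 and 0.273 CPM across control hearts 1 to 3, and it was picked out after its values were seen. The 1 lower gene was Ankrd6, also named after its values were seen (log2 change -1.08, edgeR adjusted p = 0.487). Its values were 0.759, 0.654 and 0.703 CPM across Ang II hearts 1 to 3 and 1.36, 1.88 and 1.24 CPM across control hearts 1 to 3. Ankrd40 was at 81.2 ± 11.4 CPM in Ang II hearts and 76.1 ± 6.87 CPM in control hearts (SD, n = 3 each), and Ankrd10 at 36.3 ± 7.72 CPM in Ang II hearts and 24.9 ± 2.09 CPM in control hearts (edgeR adjusted p = 0.583).

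Because Ankrd2 is best known from skeletal muscle, markers of skeletal and atrial muscle were counted. Of 13 fast skeletal markers, Myh2 and Pvalb were at 0 counts in all 6 hearts, and Myh1, Myh4 and Actn3 had at most 12 counts in any heart. The summed FPKM of the fast markers was 19.5 to 30.3 in Ang II hearts and 11.7 to 18.2 in control hearts, most of it Myl1, at 14.4 to 25.0 FPKM in Ang II hearts and 8.97 to 14.1 FPKM in control hearts. All 6 of the fast markers with enough counts to be tested had log2 changes above 0, and edgeR called 0 of them, with p before adjustment under 0.05 for 0; DESeq2 was not counted for marker lists. Summed FPKM of 5 slow skeletal markers was 8.94 to 35.5 in Ang II hearts and 17.5 to 33.3 in control hearts, nearly all of it Myh7b and Tnnt1. Myh7b was at 4.37 to 29.8 FPKM in Ang II hearts and 12.2 to 26.2 FPKM in control hearts. Tnnt1 was at 4.035 to 5.518 FPKM in Ang II hearts and 4.664 to 6.245 FPKM in control hearts. Tnni1 and Mybpc1 had at most 12 counts in any heart. Of 8 atrial markers the summed FPKM was 325 to 378 in Ang II hearts and 132 to 150 in control hearts, nearly all of it Nppa, which ventricles also express under load. The defining atrial light chain gene Myl7 had 8, 30 and 49 counts across Ang II hearts 1 to 3 and 8, 0 and 4 across control hearts 1 to 3. Sln, a regulator of the calcium pump in atria, had 10, 40 and 18 counts in Ang II hearts and 0, 0 and 4 in control hearts. The groups overlapped for Nr2f2 (0.3861 to 0.8134 FPKM in Ang II hearts, 0.6585 to 1.029 FPKM in control hearts). They also overlapped for Stard10 (4.408 to 8.01 FPKM in Ang II hearts, 5.055 to 5.856 FPKM in control hearts). Of the 6 atrial markers tested, 5 had log2 changes above 0. EdgeR called 0 atrial markers, with p before adjustment under 0.05 for 3 higher and 0 lower. Summed FPKM of 7 red blood cell markers was 603 to 639 in Ang II hearts and 1132 to 2012 in control hearts, without overlap. Of these 7 markers 0 had log2 changes above 0, and edgeR called 0, with p before adjustment under 0.05 for 6 lower. Endothelial, fibroblast, smooth muscle and macrophage sums overlapped between the groups, and edgeR called 0 of their markers. Its p before adjustment was under 0.05 for 4 of 8 endothelial, 2 of 8 fibroblast, 0 of 6 smooth muscle and 2 of 7 macrophage markers, all lower in Ang II hearts. By summed level, Ang II replicate 1 had the lowest fibroblast sum (54.3 FPKM, against 88.3 to 128 FPKM in control hearts) and the highest macrophage sum (134 FPKM, against 63.5 to 94.8 FPKM in control hearts). The part of these marker levels in the values of Ankrd1, Ankrd2, Ankrd23 and Abra was not tested.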

How the data were processed

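The table holds, for each heart, FPKM as deposited by the authors (0.0001 standing for 0) and estimated counts, deposited as whole numbers. The submitters' processing notes list Bowtie 0.12.2, HISAT2 2.0 and StringTie 1.3.0 with no role for any; strandedness is not given in the sources used here. The build in the notes is mm8, whereas coordinates equal to GENCODE M21 (GRCm38) were found for 94.2% of the 55141 IDs in both, so GRCm38 is used. The tests were edgeR 4.0.16 in R 4.3.3 (quasi-likelihood, TMM scaling, filterByExpr, two-sided, Benjamini-Hochberg adjusted p under 0.05), tried first on simulated data; SE is the log2 change divided by the root of F. DESeq2 1.42.0 and limma 3.58.1 on log2(FPKM + 0.5) were alternatives, with other scalings, filters, pseudocounts, the replicate block and each heart left out. Rounded estimates are not raw counts. Members and lists were chosen with earlier results of these data known.

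Genes were named by a rule: the members, the 5 nearest genes to each, a set of preset genes, and in each list the 3 with the smallest p (mean CPM of at least 2) and every call; for other Ankrd genes also the 3 highest in FPKM. Some of these are not reported here. The design text counts 3 mice in each group, and p-values set the difference between the groups against the spread between hearts of the same group, in these 6 hearts only. Protein sequences were not used here.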

Additional observations from a re-analysis of the deposited data

How the results depend on the processing

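The log2 changes of Ankrd1, Ankrd23, Abra and Ankrd2 were above 0 under every setting run. Relative to cardiomyocyte markers, that of Ankrd1 moved from 0.71 to 0.45, beyond its spread between hearts (pooled SD of log2 CPM 0.257). On that measure Ankrd23 also fell, from 1.03 to 0.78, and Abra from 2.54 to 2.25. These moves were within their larger spreads (pooled SD 0.331 and 0.497). That of Ankrd2 moved to 1.29 on log2(FPKM + 0.5), 0.86 on log2(FPKM + 1) and 2.07 to 3.63 with 1 heart left out. Genes called higher and lower over the whole table, 6 and 0 by edgeR, came to 11 and 1 with no filter, 159 and 117 by DESeq2, 3 and 1 by limma on log2(FPKM + 0.5), 2 and 1 on log2(FPKM + 0.1) and 3 and 0 on log2(FPKM + 1). With 1 heart left out they ranged from 0 to 93 higher and 0 to 36 lower. The highest counts were those without Ang II replicate 1, and without any other heart 0 were higher and at most 2 lower. List genes called, 3 higher and 0 lower, came to 14 and 2 by DESeq2 and 0 higher by limma at each pseudocount, and ranged from 0 to 10 higher and 0 to 1 lower with 1 heart left out. DESeq2 called 1 other Ankrd gene.

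With the replicate number as a block 0 genes and 0 list genes were called. Over all genes tested, deviations of same-numbered hearts correlated at 0.139, 0.171 and -0.06, so the numbers were not taken to pair hearts. For the members the block changed the SE of the log2 change. It was 0.179 for Ankrd1, 0.153 for Ankrd23 and 0.192 for Abra, against 0.21, 0.244 and 0.348 without the block. For Ankrd2 it was larger, 1.16 against 0.955.

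With 1 heart left out, small uncalled log2 changes crossed 0: Yap1 ranged from -0.023 to 0.227 (-0.003 without control replicate 1), Mrtfa from -0.178 to 0.136, Srf from -0.204 to 0.079 (0.024 and 0.004 without control replicates 2 and 3), Tcap from -0.002 to 0.32 and Casq2 from -0.102 to 0.773 (-0.015 without control replicate 3). Casq2 was also below 0 by limma (-0.018, -0.023 and -0.012 with pseudocounts of 0.5, 0.1 and 1) and with the block (-0.016). The cause was not tested. Depth limits Ankrd2, at 0 to 99 counts a heart.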
